A study of Mus musculus with 4 samples.

Results

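Hair follicle bulge cells were examined 1 day after deletion of ΔNp63 was induced in mouse epidermis, by single-cell RNA sequencing. The bulge cells were chosen by a gate on the counts of unique molecular identifiers (UMIs, each marking 1 captured RNA molecule). A member had 1500 or more gene UMIs, 15% or fewer of them mitochondrial, 3 or more UMIs in all of Cd34, Krt24, Postn and Lgr5 with at least 2 of these 4 genes detected, and no UMI of Ptprc, Pecam1, Col1a1 or Col3a1. The gate held 3235 barcodes of the control and 2532 of the experimental library, 5767 of the 65764 barcodes at 1 day and of 109216 in the whole series. Every member comes from 1 library per group, so cells are not replicates, the difference between groups has no replicate check, and no p-value is given.

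Control animals carried floxed alleles of ΔNp63 alone (DNp63fl/fl), and experimental animals carried the same alleles with K14-CreT2, a Cre recombinase that tamoxifen activates and that the Krt14 promoter restricts to basal keratinocytes and cells derived from them. Both groups received tamoxifen at 200 mg/kg by gavage daily for 5 days. Per the labels the animals were 2 to 17 months old, and cells were freed from the epidermis of back skin with 0.25% trypsin. A second pair of libraries with the same genotypes, taken at 1 week, was made with a 5′ kit in place of the 3′ kit used at 1 day, and is given below only side by side. The labels do not say how many animals, which ages or which digestion went into a library, so these cannot be told apart from the genotype.

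The bulge is the part of the hair follicle's outer root sheath where its stem cells rest between growth phases. Its cells keep a set of transcription factors (SOX9, LHX2, NFATC1, TCF7L1 and others) that hold them in the follicle lineage, and they sit on a basement membrane through hemidesmosomes. ΔNp63 is the p63 isoform of basal epithelial cells, a transcription factor known for sustaining the basal keratins, adhesion genes and self-renewal of stratified epithelia.

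The 1-day libraries held 33552 (control) and 32212 (experimental) barcodes and 179736563 and 144323031 gene UMIs. The lowest UMI count listed was 500 in the control and 1368 in the experimental library. Members had a median of 3315 and 3558 UMIs and a median of 4.43% and 4.45% mitochondrial UMIs. Levels are given as CPM, the UMIs of a gene scaled to the members' summed gene UMIs, 17745854 in the control and 12948754 in the experimental library, with exact 95% intervals that cover counting error only. A total of 299 cell barcodes occurred in both 1-day libraries, 5 of them as members in both. Both libraries carry 3 antibody hashtags in use, whose meaning the labels do not give. A single tag could be assigned to 29.3% of control and 23.8% of experimental members, and the levels in the 3 tag groups of each library are given as a description, not as replicates.

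Lhx2, Tbx1 and Krt15, bulge genes that the gate did not use, stood higher in members than in other barcodes. Lhx2, a homeodomain factor of bulge stem cells, stood at 172 CPM in control and 158 CPM in experimental members, against 14.2 and 14.7 CPM in the other barcodes of the same libraries that passed the depth limits. Tbx1, a T-box factor of bulge stem cells, stood at 45.9 and 38.6 CPM in members and at 3.87 and 4.59 CPM in other barcodes. Krt15, the bulge keratin, stood at 6220 and 3692 CPM in members and at 1982 and 930 CPM in other barcodes. In both libraries the gate was thus enriched in bulge genes. Members also held Krt10, a keratin of suprabasal epidermis, at 3859 and 3885 CPM.

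Just inside the threshold, with exactly 3 marker UMIs, 382 control and 461 experimental members had Lhx2 at 103 and 90.7 CPM. Just outside it, 348 and 577 barcodes with 2 UMIs of 2 markers had Lhx2 at 72.6 and 58.9 CPM. Barcodes with no marker UMI had 7.20 and 7.83 CPM. The gate therefore cuts a gradient, and barcodes with bulge transcripts lie on both sides of it.

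Members differed by how many of the 4 markers were detected. In the control library Krt15 stood at 5239 CPM in members with 2 markers, 6546 CPM with 3 and 8706 CPM with all 4, and Lhx2 at 138, 190 and 241 CPM. In the experimental library Krt15 stood at 3012, 4245 and 6043 CPM and Lhx2 at 125, 187 and 267 CPM. Both genes were thus graded with the number of markers in each library, with Krt15 lower in the experimental library in every class. Krt8, a keratin described below, stood at 338 and 340 CPM in experimental members with 2 and 3 markers and at 195 CPM in those with all 4.

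The gate held a smaller share of the experimental library. It took 12.2% of 26602 eligible control barcodes (11.8 to 12.6, exact binomial interval) and 8.56% of 29564 experimental ones (8.25 to 8.89). After every barcode was thinned to 1500 UMIs the shares were 6.59% (6.30 to 6.89) and 4.02% (3.81 to 4.25). Among barcodes of 3000 or more UMIs they lay closer together, at 8.44% and 7.95%, so the size of the difference depended on depth. The tag groups did not share one direction. Of barcodes with the first tag 7.91% (control) and 5.84% (experimental) were members, with the second 4.46% and 6.05%, and with the third 5.68% and 5.51%. Of barcodes with no assigned tag 20.4% and 10.1% were members, so most of the difference lay there. At 1 week the order was the other way, with 10.3% (9.65 to 10.9) in the control and 12.8% (12.1 to 13.5) in the experimental library. Because the gate rests on marker levels, fewer bulge cells and fewer marker UMIs per cell cannot be told apart from these shares.

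Of the 4 marker genes that chose the members, 3 stood at nearly the same level in both groups and Krt24 was lower in the experimental members; these are levels only, since the gate used them. Cd34, a surface sialomucin of bulge cells, stood at 348 CPM (control) and 358 CPM (experimental). Postn, the matrix protein periostin, stood at 1031 and 1034 CPM. Lgr5, an R-spondin receptor of the lower bulge, stood at 116 and 107 CPM. Krt24, a keratin of bulge cells, stood at 267.5 CPM and 164 CPM and was detected in 53.3% of control and 38.0% of experimental members. The same gene stood at 254 and 160 CPM in the 1-week gate. All 4 markers were detected in 14.03% of control and 8.21% of experimental members, and exactly 2 of them in 47.3% and 59.2%.

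Trp63, the gene that encodes ΔNp63 (ENSMUSG00000022510, chromosome 16: 25683763 to 25892102, plus strand, GRCm38), was lower in the experimental members. It stood at 392 CPM (383 to 401) in control and 189 CPM (182 to 197) in experimental members, a log2 ratio of -1.05 (-1.12 to -0.98). The tag groups did not overlap, with 379 to 400 CPM in the control and 136 to 186 CPM in the experimental library. In other barcodes the log2 ratio was -1.93 (-1.95 to -1.90), from 394 to 104 CPM. The intervals of the members and of other barcodes lie apart, and in the experimental library the members kept 1.82 times the Trp63 level of other barcodes. After thinning, a Trp63 UMI was found in 42.1% of control and 25.9% of experimental members, and in 42.4% and 13.5% of other barcodes.

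These UMIs are read from the 3′ end of every Trp63 isoform, which may lie outside the deleted part, so their level does not measure the deletion itself. The call of a 2-fold lower level also depends on the members taken. The log2 ratio was -0.73 with the gate applied after thinning, -0.73 without the barcodes of the highest doublet scores, -0.78 in members without a UMI of the suprabasal genes Krt10 or Krtdap, and -1.30 in members with an assigned tag. Members under 3000 UMIs (1443 control, 1032 experimental) had Trp63 at 412 and 287 CPM, less than 2-fold apart. Deeper members had 387 and 169 CPM (-1.20) and gave most of the Trp63 UMIs, 5620 and 1805 against 1335 and 647. The shallower members held more Lhx2, at 344 and 313 CPM against 133 and 125 CPM. They held less Krt1, at 147 and 240 CPM against 1404 and 1010 CPM.

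**Figure D1:**
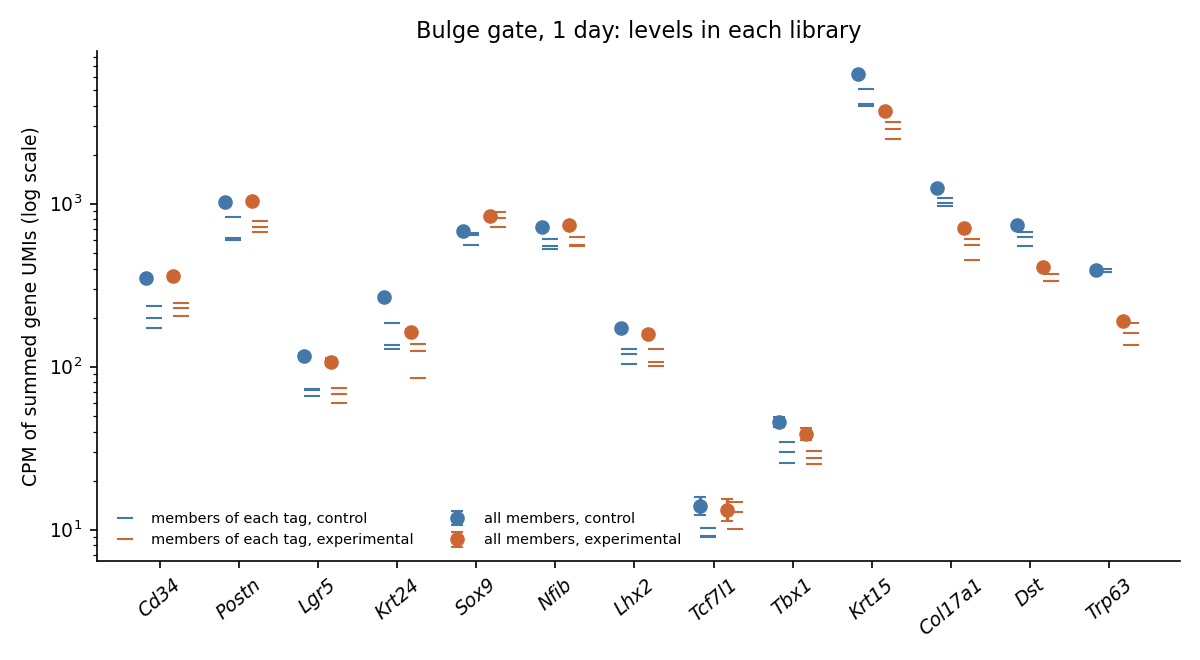
Levels in the bulge gate at 1 day, in CPM on a log scale, for the 4 marker genes of the gate, 8 bulge and adhesion genes and Trp63. Points are all members of a library with exact 95% counting intervals, and dashes are the 3 tag groups. Cd34, Postn and Lhx2 nearly coincide between libraries, Sox9 is somewhat higher in the experimental library, and Krt15, Col17a1, Dst and Trp63 are lower.

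Over all genes, 11904 had 30 or more UMIs in both members' sums together. A gene was called where its CPM differed by 2-fold or more. Of these genes 391 (3.28%) were higher and 140 (1.18%) lower in experimental members, and the median log2 ratio of all of them was -0.018. In other barcodes 5.67% of 14858 genes were higher and 3.17% lower by the same rule, on more UMIs.

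None of the 12 bulge transcription factors was called in either direction, against 3.28% (higher) and 1.18% (lower) of all measured genes. In a list this short the lack of a call is near that share and marks no difference of the list. The same holds for each list below without a call. Their median log2 ratio was -0.06, between -0.28 for Nfix and 0.31 for Sox9. Sox9, which specifies and maintains the bulge lineage, stood at 675 CPM in control and 835 CPM in experimental members, a log2 ratio of 0.31 (0.27 to 0.34). Its tag groups did not overlap, with 556 to 659 CPM in the control and 719 to 887 CPM in the experimental library. At 1 week Sox9 stood at 692 and 1046 CPM. Across all measured genes 10.9% had tag groups that did not overlap with the experimental ones higher, and 10.6% with them lower, so this separation by itself marks no gene out.

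Lhx2, which holds bulge cells in the follicle fate, had a log2 ratio of -0.12 (-0.20 to -0.04). Its sign depended on the members: the ratio was 0.012 in members with 3 or more gate markers and 0.018 in members without a Krt10 or Krtdap UMI, where Lhx2 stood at 228 and 231 CPM. Nfatc1, which restrains the cycling of bulge cells, stood at 122 and 104 CPM (-0.23, -0.33 to -0.13). Tcf7l1, the Wnt-effector repressor of bulge cells, stood at 13.9 and 13.2 CPM (-0.08, -0.37 to 0.21). Nfib, a nuclear factor I protein of the bulge, stood at 724 and 738 CPM (0.03, -0.01 to 0.07). Tbx1, Runx1, Foxc1, Vdr, Hopx and Tcf7l2 lay between -0.25 for Tbx1 and 0.14 for Tcf7l2, and the signs of all of these but Tbx1, and those of Tcf7l1 and Nfib, depended on the members taken or on the scaling. In this gate the 12 factors thus stood within 1.24-fold of their control level, while Trp63 stood at 0.483 of it. Members of both libraries were chosen by bulge markers, Lhx2 was graded with these markers, and cells with fewer marker UMIs fall outside the gate. Levels of bulge genes near the control, here and in the next list, thus follow in part from the gate. The difference from control was larger in members without a Krt10 or Krtdap UMI for Sox9, at 789 and 1251 CPM (0.67), and for Tcf7l1 (0.67).

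The 15 bulge surface, signal and matrix genes also gave no call, with a median log2 ratio of 0.00 and a range from -0.75 to 0.64. Krt15 was at the low end. It stood at 6220 CPM in control and 3692 CPM in experimental members, a log2 ratio of -0.75 (-0.77 to -0.74), with tag groups at 4004 to 5022 and 2482 to 3178 CPM. In other barcodes its ratio was -1.09. Krt15 remained 3.97 times the level of other barcodes in the experimental library, so it still marked the gate.

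Of the 15 genes 8 lay above 0 and 7 below. Those named here were picked by value or known role, and not every gene of the list is named. Bmp6, a BMP ligand that keeps bulge cells at rest, stood at 14.2 and 9.19 CPM (-0.63, -0.95 to -0.31). Fgf18, another signal of resting bulge cells, stood at 19.9 and 13.98 CPM (-0.51, -0.78 to -0.25). Ptn, Gas1, Sfrp1, Cd200 and Dkk3 lay between -0.14 and 0.08. Genes above 0 included Tnc (tenascin C), the highest of the list, at 10.9 and 17.0 CPM (0.64, 0.35 to 0.92). Ccn2 stood at 84.8 and 126 CPM (0.57, 0.47 to 0.67) and Npnt (nephronectin) at 33.5 and 47.4 CPM (0.50, 0.34 to 0.67).

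Most genes of hemidesmosomes and the basement membrane lay below 0. Of 16 measured genes, 14 lay below 0, 9 of them with their whole interval, against 52.4% and 18.9% of all measured genes. Their median was -0.24, against -0.57 in other barcodes and -0.084 in members without a Krt10 or Krtdap UMI. No gene reached the 2-fold rule downwards, and Fras1 was called higher on 16 and 39 UMIs. Col17a1, the transmembrane collagen of hemidesmosomes, stood at 1256 CPM (1240 to 1273) in control and 709 CPM (695 to 724) in experimental members, a log2 ratio of -0.82 (-0.86 to -0.79). Its tag groups were at 969 to 1085 and 448 to 604 CPM. In other barcodes Col17a1 went from 678 to 212 CPM (-1.68), and the 2 intervals lie apart.

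Dst, the plakin that ties keratins to hemidesmosomes, stood at 737 and 410 CPM (-0.85, -0.89 to -0.80). Itgb4, the β4 integrin chain, stood at 131 and 79.2 CPM (-0.73, -0.84 to -0.62), and Lamb3, a laminin 332 chain, at 149 and 96.1 CPM (-0.63, -0.73 to -0.53). The α6 integrin chain did not share this difference, since Itga6 stood at 421 and 447 CPM (0.09, 0.04 to 0.14). Itgb1, the β1 integrin chain, stood at 254 and 246 CPM. The partner chains of the α6β4 integrin thus differed in opposite directions, the α6 chain by little.

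**Figure D2:**
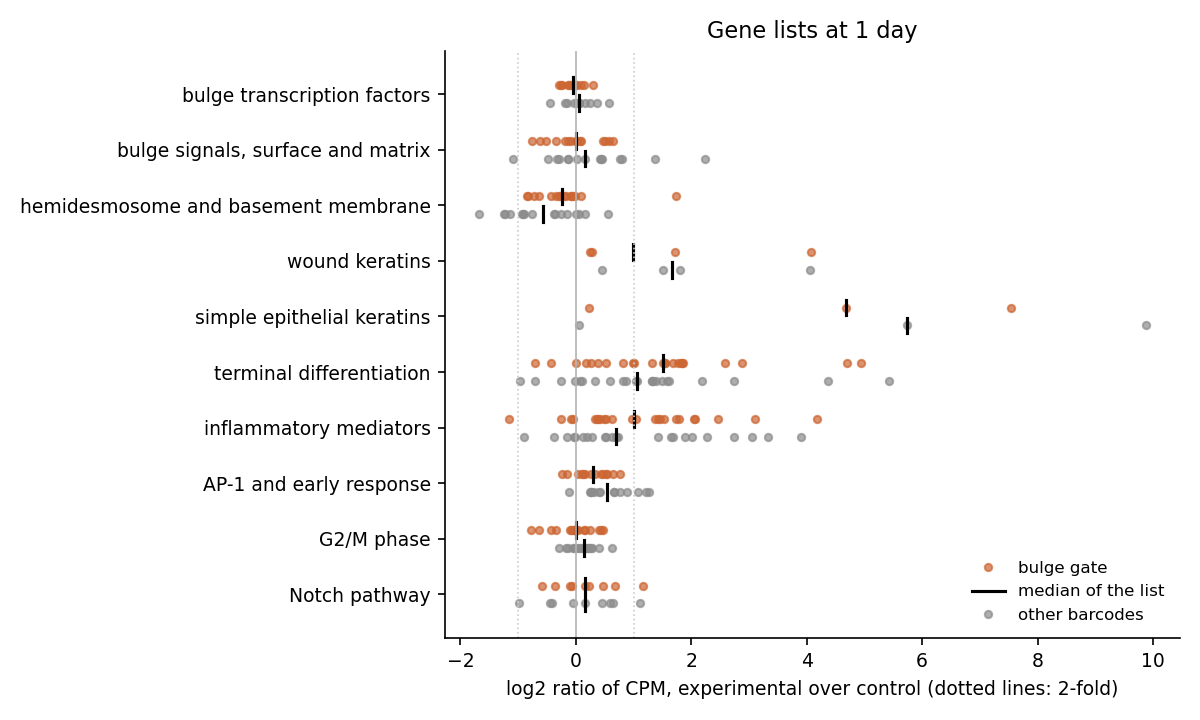
Log2 ratios of CPM, experimental over control, at 1 day for the measured genes of 10 lists, in the bulge gate and in other barcodes. Each point is 1 gene, black bars are list medians and dotted lines mark 2-fold. Bulge lists centre on 0, most hemidesmosome genes (14 of 16) lie below 0, and most terminal differentiation (21 of 23) and inflammatory genes lie above it, as do the 3 simple keratins.

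Keratins of simple epithelia, which the epidermis normally lacks, showed the largest difference of all named genes. Krt8 (ENSMUSG00000049382, chromosome 15: 101996698 to 102004482, minus strand, GRCm38) stood at 1.75 CPM (31 UMIs) in control and 325 CPM (4213 UMIs) in experimental members, 186-fold higher, a log2 ratio of 7.54 (7.03 to 8.10). The tag groups stood at 0.911 to 1.99 CPM in the control and 271 to 417 CPM in the experimental library. Krt18, the usual type I partner of keratin 8, stood at 1.18 and 30.5 CPM (4.69, 4.06 to 5.40). Krt7, another simple keratin, stood at 2.70 and 3.17 CPM (0.23, but -0.56 in 1 alternative). Krt19 had 11 and 17 UMIs, too few to be measured. Of the 3 measured genes 2 were called higher, so the difference lay in the pair Krt8 and Krt18.

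Krt8 was lower in members than elsewhere in the experimental library. Other barcodes stood at 569 CPM, from 0.602 CPM in their control. After thinning, a Krt8 UMI was found in 21.8% (20.2 to 23.5) of experimental and 0.278% (0.127 to 0.527) of control members, and in 35.3% and 0.116% of other barcodes. Without thinning the shares were 36.1% and 0.711% of members.

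Free RNA in droplets gives such UMIs in cells that do not express a gene. The level in barcodes rich in Langerhans cell markers, a dendritic cell of the epidermis, was taken as that background, a choice made after the data were seen. It was 0 of 354 control barcodes, which by 3 counts of the total allows a share of up to 0.847%, and 6.53% (4.31 to 9.43) of 398 experimental barcodes, at 66.7 CPM and a median of 2205 UMIs. Members lay above it at this limit of 80 marker UMIs, but the background depended on the limit. With 40 or more marker UMIs it was 248 CPM and 13.5% of 609 barcodes, and with 20 or more 300.3 CPM and 17.3% of 827 barcodes, against 325 CPM and 21.8% of members. Barcodes with 2 or more Ptprc UMIs stood at 330 CPM and 20.5% (14.97 to 27.1), near the members. Those barcodes also held control Trp63 at 328 CPM, against 394 CPM in other barcodes and 74.2 CPM in the Langerhans-marker barcodes. With keratinocyte RNA at that level the Ptprc barcodes were not taken as the background. The part of doublets and free RNA in the members' Krt8 level was not tested. In members without a Krt10 or Krtdap UMI after thinning (961 control, 576 experimental) Krt8 stood at 216 CPM in the experimental library. This was above the background at the limit of 80 and below it at 40 and 20. Without the highest doublet scores Krt8 stood at 180 CPM.

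The Krt8 UMIs were uneven among experimental members. In 1500 thinned UMIs, 1979 members (78.2%) had none, 433 (17.1%) had 1 or 2, and 120 (4.74%) had 3 or more. These groups were split by Krt8, so what follows is a description. Members with 3 or more had Krt8 at 1993 CPM, Krt18 at 195 CPM and Tslp, an epithelial cytokine, at 458 CPM. Those with none after thinning still held Krt8 at 96.4 CPM over all their UMIs, so they were not free of it. Langerhans-marker barcodes had 66.7 CPM at the limit of 80 marker UMIs and 248 CPM at 40. Members with none had Krt18 at 12.7 CPM and Tslp at 69.5 CPM. Members with 1 or 2 lay between, with Krt18 at 48.2 CPM and Tslp at 184 CPM. Flg, the filaggrin gene of granular cells, was highest in the middle group, with 93.7 CPM in members with none, 161 CPM with 1 or 2 and 25.5 CPM with 3 or more. Slpi, a secreted protease inhibitor, stood at 168, 216 and 99.5 CPM in the same order. Flg and Slpi thus did not follow Krt8 across the 3 groups.

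The bulge genes were lower in both groups with Krt8 UMIs after thinning. Sox9 stood at 907 CPM in members with no thinned Krt8 UMI, 649 CPM with 1 or 2 and 582 CPM with 3 or more. Lhx2 stood at 176, 105 and 124 CPM, and Krt15 at 4031, 2707 and 2893 CPM. Col17a1 stood at 781, 517 and 485 CPM. Trp63 stood at 206, 135 and 167 CPM, lowest in the middle group. Both groups with Krt8 UMIs were deeper, with medians of 4622 and 5252 UMIs against 3254, and had a median of 2 thinned marker UMIs against 3. The part of depth in these differences was not tested. Lhx2 in these members stood above its 14.7 CPM in other barcodes.

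**Figure D3:**
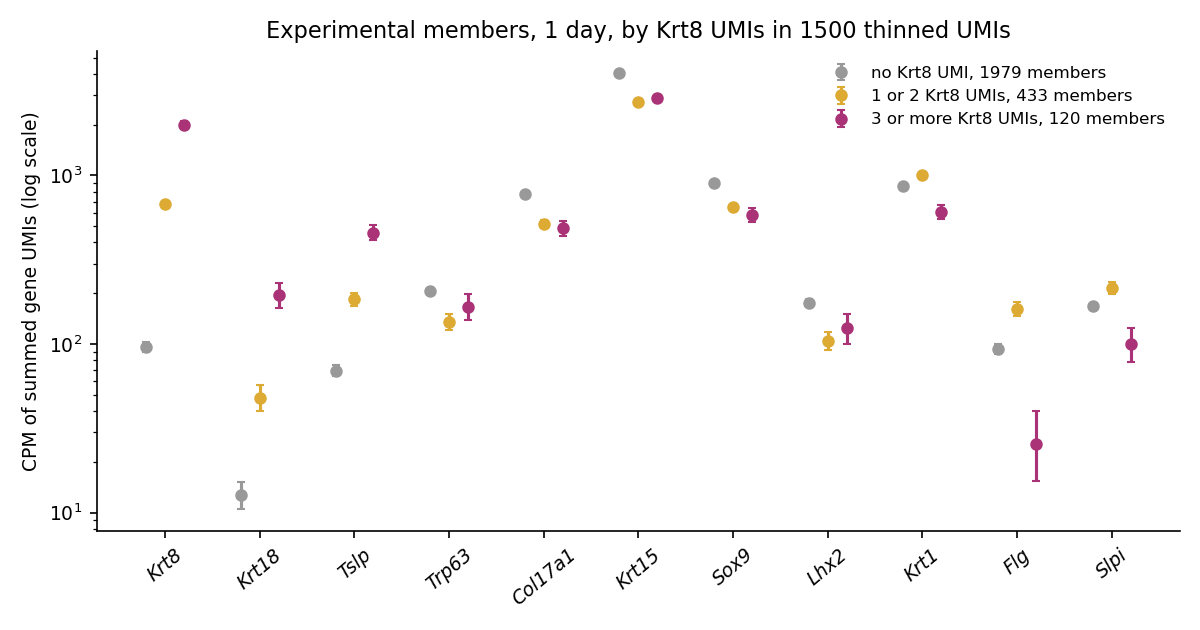
Levels in experimental members at 1 day, in CPM on a log scale, split by the Krt8 UMIs in 1500 thinned UMIs per barcode. Points carry exact 95% counting intervals. Krt18 and Tslp climb with Krt8, from 12.7 to 195 CPM and from 69.5 to 458 CPM. Sox9, Krt15 and Col17a1 are lower in both groups with Krt8 UMIs, which are also deeper.

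The wound keratins divided in pairs. Krt16, which epidermis makes after injury, stood at 487 CPM in control and 1597 CPM in experimental members, 3.28-fold higher (log2 1.71, 1.68 to 1.75), with tag groups at 476 to 580 and 1228 to 2176 CPM. Krt6b, a type II partner, stood at 5.13 and 86.5 CPM (4.08, 3.77 to 4.401). Krt17 and Krt6a, which the follicle makes without injury, stood at 1643 and 1953 CPM (0.25) and at 770 and 933 CPM (0.28). In members without a Krt10 or Krtdap UMI, Krt16 stood at 316 and 610 CPM, a ratio of 0.95 that no longer passed 2-fold, and Krt6a at a ratio of -0.066. Krt6a was also below 0 after thinning (-0.15) and without the highest doublet scores (-0.073). Krt6b stood at 9.19 CPM in experimental members without a Krt10 or Krtdap UMI, below the 26.1 CPM of Langerhans-marker barcodes. Krt16, at 610 CPM there, stood above their 311 CPM, but below the 888 and 1323 CPM at limits of 40 and 20 marker UMIs. Over all members Krt16 and Krt6b were called higher and the follicular pair was not.

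The terminal differentiation list held the most genes called higher. Of 23 measured genes 14 were called higher and none lower, against 3.28% and 1.18% of all measured genes. Their median was 1.51, against 1.06 in other barcodes. Sprr1a, a cornified envelope precursor, stood at 1409 and 5088 CPM (1.85, 1.83 to 1.87). Flg stood at 14.1 and 104 CPM (2.88, 2.68 to 3.08), and Lor, the loricrin gene, at 181 and 531 CPM (1.55, 1.49 to 1.61). Alox12b, a lipoxygenase of the lipid barrier, stood at 14.3 and 86.0 CPM (2.59), and Tgm1, the transglutaminase that crosslinks the envelope, at 18.2 and 64.8 CPM (1.83). Grhl3, a transcription factor of late differentiation, stood at 17.0 and 58.0 CPM (1.77). In members without a Krt10 or Krtdap UMI the ratio was 0.95 for Grhl3, no longer past 2-fold, and 1.47 for Alox12b.

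The early, spinous genes were not called. Krt10 stood at 3859 and 3885 CPM (0.01, but 1.08 with the gate applied after thinning), Krt1 at 1174 and 876 CPM (-0.42, -0.46 to -0.39), and Ivl, the involucrin gene, at 103 and 62.6 CPM (-0.71, -0.83 to -0.59). Krt1 and Ivl were thus the 2 of 23 genes below 0, but Krt1 was at 0.49 with the gate applied after thinning and Ivl at 0.084 without the highest doublet scores. Sbsn and Krtdap lay between the groups, at 0.81 and 0.39, with Krtdap at 1.07 after thinning.

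The UMIs of the terminal differentiation list per barcode also differed between the groups. After thinning, the list's UMIs had a median of 4 per member in the control and 8 in the experimental library, and of 7 and 39 in other barcodes. In members without a Krt10 or Krtdap UMI, a choice that itself selects on such genes, Flg stood at 7.66 CPM in the experimental library against 19.8 CPM in the Langerhans-marker barcodes. Sprr2d stood there at 10.7 CPM against 14.6 CPM, and Slpi at 31.8 CPM against 18.8 CPM, or 43.1 and 133.5 CPM at limits of 40 and 20 marker UMIs. Klk7, a kallikrein protease that sheds the horny layer, stood at 332 CPM there, at 280 CPM in the Langerhans-marker barcodes and at 1771 CPM in all members. The list's median in those members was 0.73, and Lor (0.51) was no longer called. The part of free RNA and of doublets with differentiated cells in the list's difference was not tested.

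**Figure D4:**
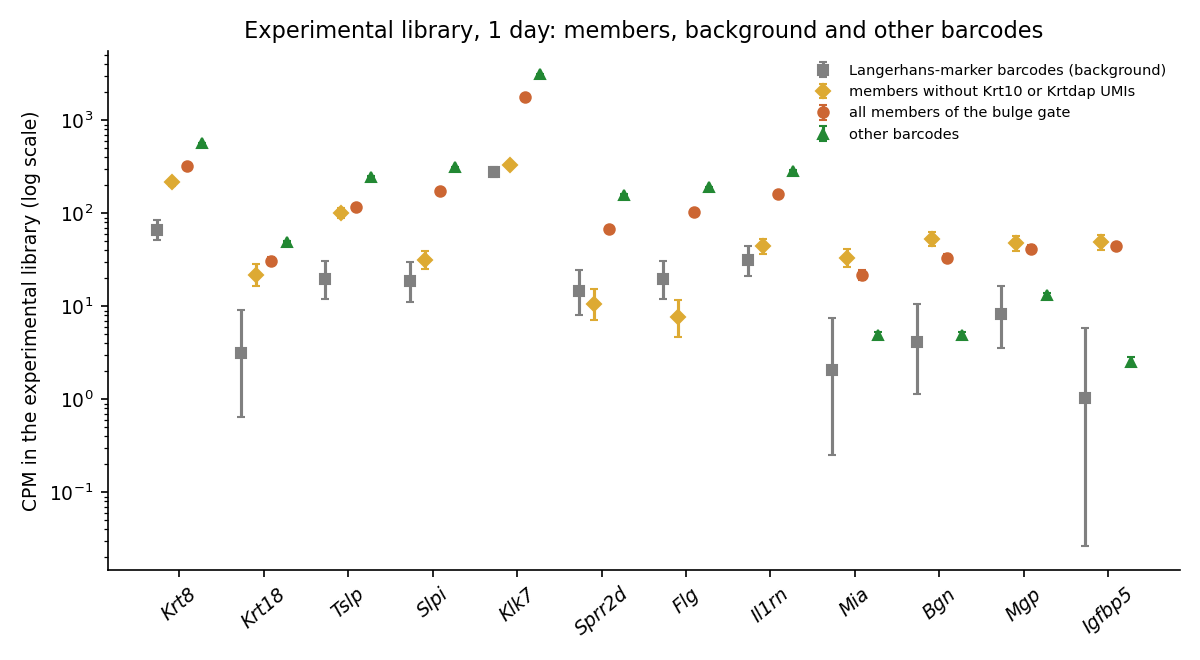
Levels in the experimental library at 1 day, in CPM on a log scale, for 12 genes in Langerhans-marker barcodes (background), in all members, in members without a Krt10 or Krtdap UMI and in other barcodes, with exact 95% counting intervals. In members without those UMIs, Sprr2d and Flg are no higher than the background, Klk7 is near it, and Krt8, Krt18, Tslp, Mia, Bgn, Mgp and Igfbp5 are above it. With 40 or more marker UMIs in place of 80 the background of Krt8 (248 CPM) and Klk7 (962 CPM) lies above those members.

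Of 24 measured inflammatory mediators 12 were called higher and 1 lower, against 3.28% and 1.18% of all measured genes. Their median was 1.01, against 0.69 in other barcodes. The median was 0.49 in members without a Krt10 or Krtdap UMI, 0.59 in members with a tag and 0.63 in members with 5 or more marker UMIs. Tslp, the epithelial cytokine of type 2 immunity, stood at 13.4 CPM in control and 116 CPM in experimental members, 8.65-fold higher (log2 3.11, 2.91 to 3.32). Its tag groups were uneven, at 7.74 to 42.3 and 72.3 to 208 CPM, and did not overlap. In members without a Krt10 or Krtdap UMI it stood at 101 CPM, against 19.8 CPM in Langerhans-marker barcodes, or 55.6 and 70.5 CPM at limits of 40 and 20 marker UMIs.

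Several genes of the interleukin 1 family were among those called. Il1f9, the keratinocyte cytokine IL-36γ, stood at 9.02 and 37.8 CPM (2.07, 1.81 to 2.33), and Il1a at 1.69 and 9.34 CPM (2.47, 1.88 to 3.09). Il1f6, the IL-36α gene, stood at 0.282 and 5.10 CPM (4.18, 2.88 to 5.85). Il1rn, the receptor antagonist of interleukin 1, stood at 46.2 and 160 CPM (1.79), and at 24.5 and 44.0 CPM (0.84) in members without a Krt10 or Krtdap UMI. The experimental Langerhans-marker barcodes had 31.3 CPM of Il1rn, or 104 and 148 CPM at limits of 40 and 20 marker UMIs, above those members. Il18 stood at 5.80 and 19.2 CPM (1.73), below its 172 CPM in the experimental Langerhans-marker barcodes, and its ratio was 0.87 in members without a Krt10 or Krtdap UMI. Il1b stood at 3.16 and 9.11 CPM (1.53), below its 1188 CPM in the Langerhans-marker barcodes. Il33, an alarmin of the family, stood at 61.1 and 79.4 CPM (0.38) and was not called, with a ratio of -0.86 in members without a Krt10 or Krtdap UMI.

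Chemokines were mixed. Cxcl1, which draws neutrophils, stood at 11.4 and 29.4 CPM (1.37, 1.12 to 1.62), with overlapping tag groups and a ratio of 0.71 without the highest doublet scores. Its experimental level was no higher than the 34.4 CPM (23.7 to 48.3) of experimental Langerhans-marker barcodes. Cxcl10, an interferon-induced chemokine, was the gene of the list called lower, at 12.4 and 5.56 CPM (-1.16, -1.56 to -0.77). Its control tag groups ranged from 6.45 to 52.3 CPM, and with the gate applied after thinning its ratio was -0.02. Ccl2, which draws monocytes, stood at 58.5 and 49.0 CPM (-0.26), but its ratio was 1.35 with the gate applied after thinning and 1.26 without the highest doublet scores.

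The early response genes of the AP-1 family gave no call, near the share of all measured genes. Of 14 genes 12 lay above 0, against 47.6% of all measured genes, with a median of 0.29 against 0.54 in other barcodes. Fos stood at 950 and 1387 CPM (0.55, 0.51 to 0.58) and Dusp1, a MAP kinase phosphatase, at 588 and 1000.1 CPM (0.77, 0.73 to 0.80). Jun stood at 1267 and 1136 CPM and Jund at 1401 and 1193 CPM. Control members already held Fos above the 201 CPM of other control barcodes.

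Among p53 family and growth arrest genes 1 of 20 was called, with a median of 0.07. Over all measured genes 3.28% were called higher and 1.18% lower, so 1 call in this list marks no difference of the list. Pmaip1, the BH3-only protein NOXA, stood at 13.4 and 43.8 CPM (1.71, 1.49 to 1.93), and at a ratio of 0.92 in members without a Krt10 or Krtdap UMI. Cdkn1a, the p21 inhibitor of cyclin-dependent kinases, stood at 502 and 859 CPM (0.77, 0.73 to 0.81, but 0.14 in members without a Krt10 or Krtdap UMI), and Btg2, an antiproliferative p53 target, at 909 and 1512 CPM (0.73). Phlda3, another p53 target, stood at 157 and 83.8 CPM (-0.90, -1.01 to -0.80). Targets of p53 thus lay on both sides of 0.

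Cycle genes were not called. The 15 S phase genes had a median of -0.07, and the 18 genes of G2 and M phase one of -0.005. Over the alternatives these medians ranged from -0.14 to 0.24 and from -0.076 to 0.71, the highest in members without a Krt10 or Krtdap UMI, and the latter changed sign in 9 of 12. After thinning, 3.62% (3.0001 to 4.32) of control and 4.62% (3.84 to 5.51) of experimental members had 3 or more UMIs of the latter list. Langerhans-marker barcodes stood at 8.19% and 8.29%, above the members, so these shares are not read as cycling.

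List medians of follicle signalling pathways lay near 0 as well. Over all measured genes 3.28% were called higher and 1.18% lower, so the lack of a call in lists this short marks no difference of the list. None of 22 Wnt genes was called (median -0.10), with Wnt10a at 37.4 and 22.0 CPM (-0.76), Fzd2 at 77.4 and 53.6 CPM (-0.53, -0.66 to -0.40) and Wnt3 at 18.6 and 31.1 CPM (0.74, but -0.084 in members without a Krt10 or Krtdap UMI). None of 21 BMP and TGF-beta genes was called (median -0.06). Among these Tgfbr2, a TGF-beta receptor chain, stood at 52.7 and 78.9 CPM (0.58), Grem1, a BMP antagonist, at 136 and 109 CPM (-0.32), and Id2, a BMP target, at 155 and 118 CPM (-0.39), where other barcodes had 0.41. Of 9 Notch genes 1 was called higher, against 3.28% of all measured genes. This was Notch2, at 24.1 and 53.8 CPM (1.16, 0.99 to 1.34), with tag groups at 24.1 to 35.5 and 54.9 to 67.2 CPM. Its ratio was 0.996, under 2-fold, in members without a Krt10 or Krtdap UMI. None of 14 interferon and antigen presentation genes was called (median -0.20, and 0.12 with the gate applied after thinning).

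Marker lists of other cell types gave few calls within the gate, but the summed UMIs of several were higher. After thinning, 32.6% of control and 55.5% of experimental members had 3 or more UMIs of upper follicle markers, and 26.1% and 42.3% had 3 or more of Langerhans markers. In other barcodes the shares were 60.9% and 79.5% for the former and 22.8% and 54.1% for the latter. Their part in the results above was not tested. Over all measured genes 3.28% were called higher and 1.18% lower, so 1 call in a list this short marks no difference of the list. Of 9 upper follicle markers Klk10 was called higher, at 10.8 and 45.7 CPM (2.08), and Krt79 stood at 341 and 340 CPM. Of 9 interfollicular basal markers Ly6a was called higher, at 88.9 and 255 CPM (1.52, but 0.94 in members without a Krt10 or Krtdap UMI), while Krt5 stood at 2780 and 1567 CPM (-0.83) and Krt14 at 5004 and 3628 CPM (-0.46). Of 7 sebaceous markers Cidea was called lower, at 8.73 and 2.93 CPM (-1.57, but -0.73 as the mean of CPM per cell).

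The 8 Langerhans markers all lay above 0 (median 0.37, summed level 1314 and 2035 CPM), as in other barcodes (0.39), but their median was -0.022 in members with 3 or more of the 4 gate markers and 1.37 without the highest doublet scores. Of 7 T cell markers and 4 melanocyte markers measured none was called (summed level 49.6 and 33.0 CPM, and 52.7 and 50.4 CPM). Over the alternatives the T cell median ranged from -0.74 to 0.33 and the melanocyte median from -0.12 to 2.07, the last without the highest doublet scores. Of 3 fibroblast markers measured Dcn was called on 24 UMIs (summed level 261 and 294 CPM). The defining Merkel cell markers, a cell that makes keratin 8 normally, summed to 0.62 and 1.16 CPM with 4 of 6 at 0 in both groups.

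By a rule over all genes with 50 or more UMIs, the 14 genes with the highest and the 14 with the lowest ratio were named, ranked by the bound of the interval nearest to 0. The highest were Krt8, Slpi, Hbb-bt, Slurp1, Hbb-bs, Ly6c1, Elf5, Sprr2d, Cldn7, Sprr2f, Krt18, Sprr2e, Nppb and Sprr2i. Slpi stood at 1.41 CPM in control and 174 CPM in experimental members (6.95, 6.38 to 7.58), with tag groups at 0 to 7.29 and 108 to 365 CPM, and its ratio was 4.57 in members without a Krt10 or Krtdap UMI. Slurp1, a secreted Ly6 protein of keratinocytes, stood at 5.47 and 209 CPM (5.26, 4.96 to 5.56). Ly6c1 stood at 5.52 and 143 CPM (4.70, but 3.14 in members without a Krt10 or Krtdap UMI), Nppb, a natriuretic peptide gene, at 2.25 and 46.6 CPM (4.37), and Elf5, an ETS factor of epithelia, at 0.169 and 10.3 CPM (5.92, 4.35 to 8.22). All 14 also had a ratio above 0 in other barcodes. Tag groups did not overlap in 11 of them, against 10.9% of all measured genes with the experimental groups higher. The tag groups are parts of the members that ranked these genes, so their separation adds no support.

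The globin genes in this set stand apart. Hbb-bt had no UMI in control and 110 in experimental members, at least 50.2-fold higher against a floor of 3 counts. Hbb-bs stood at 0.564 and 29.2 CPM, but at 0 CPM in every experimental tag group. A single experimental member held 365 of its 378 UMIs, and 1 member held 109 of the 110 UMIs of Hbb-bt, so neither fold describes the members as a whole. Hbb-bs stood at 1.15 CPM in experimental members without a Krt10 or Krtdap UMI. At 1 week both globin genes lay the other way (-4.94 and -4.14).

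The lowest were Serpinb12, Hpgds, Mt4, Igfbp2, Ttk, Serpinb3b, Ptprz1, Alox12, Adh1, Clca3a2, Gsta4, Gm50022, Ch25h and Cotl1. Serpinb12, a clade B protease inhibitor, stood at 31.8 CPM in control and 3.24 CPM in experimental members (-3.30, -3.78 to -2.84), with a ratio of -1.38 when the gate was applied after thinning. Mt4, the metallothionein of stratified epithelia, stood at 141 and 25.02 CPM (-2.49), though its ratio was -1.21 with the gate applied after thinning and -0.18 in members without a Krt10 or Krtdap UMI. Clca3a2 was the most abundant, at 289 and 93.3 CPM (-1.63, -1.72 to -1.54), and its ratio was -0.63 without the highest doublet scores. Ch25h, which makes 25-hydroxycholesterol, stood at 18.2 and 5.10 CPM (-1.84), with -0.24 under that alternative. Hpgds, a prostaglandin D synthase, stood at 50.0 and 7.72 CPM (-2.70, but -1.23 without the highest doublet scores), under the 628 and 547 CPM of Langerhans-marker barcodes. All 14 had tag groups that did not overlap and a ratio below 0 in other barcodes. Over all measured genes 10.6% had tag groups apart with the experimental ones lower. The ranking used the members that the tag groups are parts of, so this separation adds no support.

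Most called genes were at a lower level in members than in other barcodes of the experimental library. The median of that ratio of levels was 0.650 among the 391 genes called higher and 0.565 among the 14 highest (0.433 to 2.73), against 1.08 over all measured genes. Only 77 of the 391 genes (19.7%) stood at or above the level of other barcodes, against 61.6% of all measured genes. For Krt8 the ratio was 0.572, for Slpi 0.558 and for Krt10 0.597, whereas it was 0.994 for Krt14. In experimental Langerhans-marker barcodes the ratios to other barcodes were 0.117 for Krt8, 0.0603 for Slpi and 0.156 for Krt14. Of the 391 genes 17.4% were at or below their level in those barcodes, against 31.1% of all measured genes. With 40 or more Langerhans-marker UMIs the share was 22.3% against 31.9% of all measured genes, and with 20 or more 27.4% against 33.1%. The 391 genes were called on the same experimental level. A smaller share than among all genes thus follows in part from that choice, and the part of free RNA was not tested.

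A smaller set was called higher and stood 2-fold or more above other barcodes. It held 39 genes, 24 of them with 50 or more UMIs, and was chosen after these values were seen. By ratio Hbb-bt comes first, and Basp1 (2.19) and Pla2g7 (2.22) are also among its leading genes. Basp1 stood at 11.3 CPM in experimental members, below its 121 CPM in Langerhans-marker barcodes. The matrix and secreted genes described here were picked from it after their values were seen. Fibroblast markers moved with the group as well. Of 7 such markers 3 were measured, Sparc at 241 and 264 CPM (0.14, 0.07 to 0.20), Col1a2 at 17.98 and 24.9 CPM (0.47, 0.24 to 0.70) and Dcn at 0.676 and 1.85 CPM (1.45, 0.40 to 2.59), with overlapping tag groups in each. Their median was 0.47 against -0.04 in other barcodes, and their part in the matrix genes was not tested. Mia, a small secreted matrix protein, stood at 5.13 and 21.7 CPM (2.08, 1.74 to 2.44), against 1.14 and 4.89 CPM in other barcodes, with tag groups at 2.28 to 4.48 and 9.68 to 19.6 CPM. Bgn, the proteoglycan biglycan, stood at 8.40 and 33.0 CPM (1.97, 1.70 to 2.25), against 1.89 and 4.90 CPM elsewhere, with tag groups at 5.92 to 7.47 and 14.5 to 37.5 CPM. Adamts2, a procollagen protease, stood at 0.676 and 4.09 CPM (2.60, 1.68 to 3.64) on 12 and 53 UMIs. In each of these 3 picked genes the experimental tag groups all lay above the control ones, as in 10.9% of all measured genes. Most of the 24 genes of the set had overlapping tag groups, so the separation adds no support.

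Mgp, the matrix Gla protein, stood at 11.8 and 41.7 CPM (1.82), but its tag groups overlapped, at 3.64 to 13.4 and 3.23 to 73.4 CPM. Igfbp5, an IGF-binding protein, stood at 13.7 and 44.0 CPM (1.68), with overlapping tag groups at 5.01 to 13.9 and 13.7 to 115 CPM and a ratio of 1.07 in members without a Krt10 or Krtdap UMI. In members without a Krt10 or Krtdap UMI, Mia stood at 5.79 and 33.3 CPM, Bgn at 13.1 and 53.6 CPM, and Mgp at 5.12 and 47.5 CPM. Langerhans-marker barcodes of the experimental library had 2.08 CPM of Mia, 4.17 CPM of Bgn and 8.34 CPM of Mgp. The differences in these matrix genes were thus present in members without those suprabasal UMIs after thinning, where the genes stood above that background. At the limit of 20 or 40 marker UMIs the background was at most 3.97 CPM for Mia, 4.54 CPM for Bgn and 13.1 CPM for Mgp.

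Further genes of the set had few UMIs. Spock1, a matrix proteoglycan, stood at 0.733 and 3.94 CPM (2.43), Gdf10, a BMP-related ligand, at 2.48 and 6.41 CPM (1.37), Wnt5b at 3.44 and 6.95 CPM (1.02) and Aebp1, a matrix-binding protein, at 6.71 and 13.5 CPM (1.01). Their 1-week ratios were 3.56, 1.15, 1.07 and 1.13. The last 3 lay close to 2-fold at 1 day and were not called under several alternatives, down to 0.70 for Gdf10, 0.72 for Wnt5b and 0.78 for Aebp1. Of the 140 genes called lower, 19 stood 2-fold or more above other barcodes in the control library, with Fam171b at 36.4 and 16.4 CPM (-1.15).

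The 1-week libraries, made with another kit, gave a second gate of 992 control and 1187 experimental barcodes. Of 11533 genes measured there 4.67% were higher and 2.75% lower. Among 11180 genes measured at both times, 158 were higher at both, 52.1% of those higher at 1 day and 33.7% of those higher at 1 week. Of the genes higher at 1 day 86.5% had a ratio above 0 at 1 week, against 54.8% of all genes. Of those lower at 1 day 75% had a ratio below 0 at 1 week, against 45.2% of all. Of the lower genes 31 were lower at both times, 32.3% of those at 1 day and 10.9% of those at 1 week.

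Single genes at both times gave the following pairs. Krt8 stood at 2.23 and 170 CPM at 1 week (6.25), Krt18 at 0.171 and 36.1 CPM (7.72) and Slpi at 0.343 and 48.8 CPM (7.15). Mia stood at 7.89 and 32.7 CPM (2.05) and Bgn at 31.9 and 164 CPM (2.36), close to their 1-day ratios. Igfbp5 stood at 36.0 and 35.9 CPM. Krt10 (-2.0002) and Krt1 (-2.18) were lower at 1 week, where their 1-day ratios were 0.01 and -0.42. Trp63 stood at 498 and 266 CPM (-0.91) and Col17a1 at 1444 and 855 CPM (-0.75). The difference between the times was not tested.

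**Figure D5:**
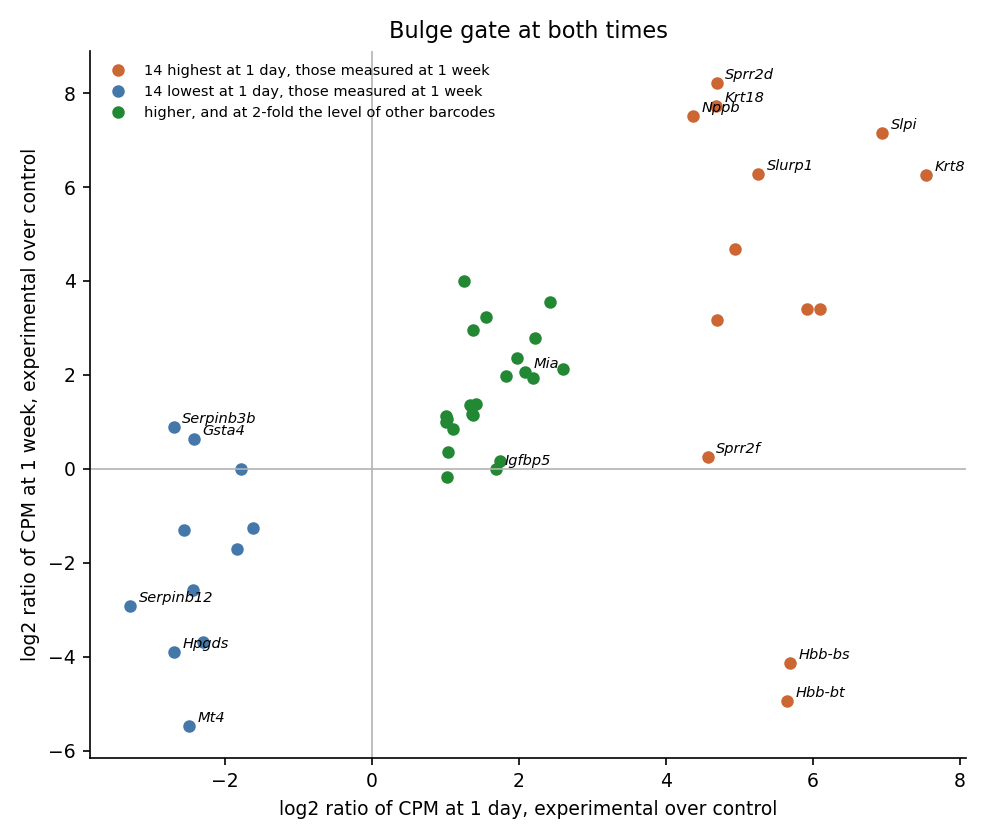
Log2 ratios of CPM, experimental over control, in the bulge gate at 1 day (horizontal) and at 1 week (vertical), for the named highest and lowest genes and for genes called higher at 1 day that stood 2-fold or more above other barcodes. Krt8, Slpi, Krt18 and Mia lie above 0 at both times, Serpinb12, Mt4 and Hpgds below 0 at both, and the 2 globin genes change sign.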

How the data were processed

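Gene-by-barcode UMI counts, as deposited, came from Cell Ranger 5.0.1 per the file headers; mm10 and Seurat are named in the submitters' processing notes. Counts of 38 symbols listed more than once were summed. Positions are from GENCODE M21. Members' UMIs were summed per library, and CPM, exact Poisson intervals and exact conditional binomial intervals of log2 ratios were computed (Python 3.11.15, numpy 2.4.6, scipy 1.17.1) and tested on simulated data. A gene was measured with 30 or more UMIs in both sums together and called at 2-fold. With 1 library per group no test was made. Shares use exact Clopper-Pearson intervals on barcodes thinned to 1500 UMIs. Doublets were kept; an alternative removed the highest Scrublet scores (scanpy 1.11.5), and others used edgeR 4.0.16 and DESeq2 1.42.0 size factors. A tag was assigned where it exceeded the next by 2-fold. Members without a Krt10 or Krtdap UMI were chosen on the thinned UMIs. Langerhans-marker barcodes held 80 or more of 1500 thinned UMIs of Cd207, Cd74, H2-Aa, H2-Ab1 and H2-Eb1, a background added after the data were seen, with limits of 20 and 40 also tried. They took the place of the planned background, barcodes with 2 or more Ptprc UMIs. Named genes were Trp63, list members picked by ratio or known role, and the 14 highest and 14 lowest genes by interval bound. Not every list member with a large ratio was named, and the lowest ratio of the Wnt list was -0.90. Members and lists were chosen with earlier results of these data known.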

Additional observations from a re-analysis of the deposited data

Results flagged for a closer look

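Acta2, smooth muscle actin, and Cxcl10 differed between groups in opposite directions in members and in other barcodes. Acta2 had a log2 ratio of 2.31 (1.15 to 3.65) in members, on 8 and 29 UMIs, and -0.94 in other barcodes. Cxcl10 had -1.16 in members and 0.27 in other barcodes, but -0.02 in members with the gate applied after thinning. The difference between members and other barcodes was not tested, with 1 library per group.

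The antibody hashtags are data outside the gene counts. Members of the control library had a median of 89, 107 and 105 UMIs of the 3 hashtags in use, and members of the experimental library 72, 142 and 72. The hashtag not in use had 2256 and 1425 UMIs in the whole library. Members with an assigned tag were deeper (median 6958.5 and 6103 UMIs) than members without (2726 and 3046).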

How the results depend on the processing

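With 1 library per group, leaving out a replicate was not possible. No paired analysis was possible because each group has 1 library. Of 123 named genes besides Trp63, 66 were past 2-fold. Of these 49 stayed past it in each alternative that gave a value, 17 did not in at least 1, and none of the 66 changed sign. The tag and Krt10 alternatives were chosen after seeing the data. Depth limits genes under 30 UMIs.

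Below, cycling is short for the share of members with 3 or more UMIs of the G2/M list, which is not read as cycling. The gate after thinning moved Trp63 to -0.73, the terminal differentiation median to 1.88, the cycling shares to 1.68% and 2.81%, the gate shares to 6.59% and 4.02%, and the experimental Krt8 share to 13.9%. Without the highest Scrublet scores these were -0.73, 1.82, 2.06% and 3.82%, 11.2% and 7.16%, and 12.1%, with bulge medians of -0.18 (factors) and -0.10 (signals) and an inflammatory median of 1.42. With an assigned tag, Trp63 was -1.30, 211 genes were lower, the simple keratin median was 3.77, the terminal median 1.23, the inflammatory median 0.59, cycling 5.91% and 8.29%, and the Krt8 share 25.5%. Without a Krt10 or Krtdap UMI, Trp63 was -0.78, 198 genes were higher, the signals median was 0.15, the terminal median 0.73, the inflammatory median 0.49, experimental cycling 5.73% and the Krt8 share 13.9%. With 5 or more marker UMIs the signals median was 0.083, the inflammatory median 0.63, the gate shares 9.29% and 5.81%, and the Krt8 share 19.8%. With 3 of 4 markers the terminal median was 1.27, control cycling 2.99% and the gate shares 6.41% and 3.498%. With 3000 or more UMIs Trp63 was -1.20, cycling 5.41% and 6%, the gate shares 8.44% and 7.95%, and the Krt8 share 27.9%. The mean of CPM per cell gave Trp63 -0.82 and bulge medians of -0.20 (factors) and -0.11 (signals). Without mitochondrial and ribosomal genes Trp63 was -1.12. With no count filter 2236 genes were higher and 1996 lower, 63 were lower at 100 or more UMIs, and the simple keratin median was 2.89 at 10 or more.

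In all, 24 of the 123 named genes changed sign in an alternative, among them Tcf7l1 (up to 0.67) and Krt7 (down to -0.56). So did the medians of both bulge lists and of the S phase, G2/M, p53, Wnt, BMP and interferon lists. Those of the upper follicle, sebaceous, T cell and melanocyte lists did as well. The changes given next had a main interval, for lists the median bounds, on 1 side of 0. Direction changed for the Langerhans list with 3 of 4 markers (-0.022). It changed for the smooth muscle list, of 2 measured genes (main 1.12): -0.10 with 3 of 4 markers, -0.16 after thinning, -0.15 without high Scrublet scores and -0.058 with a tag. Lhx2 was 0.012 with 3 of 4 markers and 0.018 without a Krt10 or Krtdap UMI. Krt6a was -0.15 after thinning, -0.073 without high Scrublet scores and -0.066 without a Krt10 or Krtdap UMI. With a tag, Runx1 was 0.14, Tcf7l2 -0.019 and Dkk3 0.022. Without a Krt10 or Krtdap UMI, Runx1 was 0.053, Hopx -0.26, Dkk3 0.17, Il33 -0.86, Ccl2 0.45, Jun 0.0087 and Wnt3 -0.084. After thinning, Hopx was -0.056, Krt1 0.49 and Ccl2 1.35. Without high Scrublet scores Hopx was -0.26, Sfrp1 -0.024, Ivl 0.084 and Ccl2 1.26. As the mean of CPM per cell Hopx was -0.021, Sfrp1 -0.067 and Ccl2 0.45. The causes were not tested.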

Other observations

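Per the labels, males and females were used in equal parts. In the 1-day libraries Xist, which female cells express, had 6 UMIs in each library over all barcodes, and Ddx3y, a Y-linked gene, stood at 95.1 CPM (control) and 101 CPM (experimental). At 1 week Xist stood at 289 and 143 CPM and Ddx3y at 51.4 and 31.5 CPM. The 1-day comparison therefore rests on libraries with almost no Xist, and its counterpart at 1 week does not.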
